A study of Mus musculus with 12 samples.

Results

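The neuronal pentraxins are a family of 3 mouse genes, Nptx1, Nptx2 and Nptxr, and their rows were taken by symbol from a count table of 55573 genes. All 3 members passed the expression filter that kept 14008 genes for testing. The table held poly-A RNA sequencing of whole right hippocampi from 12 mice of strain C57BL/6J at 4.5 months of age. Female and male APP/PS1 mice (n = 4 of each sex), labelled with the genotype APPSwe/Ps1dE9, were set against female and male WT mice (n = 2 of each sex). According to the study's methods, the APP/PS1 mice carried a chimeric mouse and human APP with the Swedish mutation together with the Ps1dE9 transgene, both driven by prion promoter elements. Each library came from the whole tissue, so fewer cells of a type and less RNA per cell cannot be told apart. The labels do not say that the mice were littermates, so p-values measure the spread between these animals.

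Neuronal pentraxins are proteins of the excitatory synapse that gather AMPA-type glutamate receptors. Nptx1 (NP1) and Nptx2 (NP2, also called Narp) are secreted, while Nptxr is held in the membrane and can be shed by proteases. Nptx2 is known as an activity-regulated gene whose product acts on excitatory synapses onto parvalbumin interneurons. The 3 proteins form mixed complexes through their amino-terminal coiled coils and share a carboxy-terminal pentraxin domain with the blood proteins CRP and serum amyloid P.

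On GRCm38 with the GENCODE M21 annotation, Nptx1 (ENSMUSG00000025582) lies on chromosome 11 from 119538719 to 119547753 on the minus strand. Nptx2 (ENSMUSG00000059991) lies on chromosome 5 from 144545902 to 144557478 on the plus strand. Nptxr (ENSMUSG00000022421) lies on chromosome 15 from 79786351 to 79804766 on the minus strand. Each has 5 exons in its coding transcript, with coding sequences of 1299 bases in Nptx1, 1290 in Nptx2 and 1482 in Nptxr. The annotated coding sequence opens with ATG in Nptx1 and Nptx2 and with CTG in Nptxr.

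The coding sequences were aligned to see how closely the members resemble each other. Nptx1 and Nptx2 were identical at 65.5% of 1246 aligned positions, Nptx2 and Nptxr at 61.9% of 1274, and Nptx1 and Nptxr at 59.4% of 1250. The likeness was greater in the later part of the coding sequence, which holds the pentraxin domain, than in the earlier part (for Nptx1 and Nptx2, 70.1% against 60.8%). The most conserved stretch of 60 coding bases, in exon 4 of each gene, is printed here because it is where reads of the members would be most alike. Of its 60 positions, 42 were identical in all 3 genes and 18 differed, and the differing positions are in capitals. The stretches are read in the sense direction and lie at chr11:119543189-119543248 (minus strand) in Nptx1, chr5:144555410-144555469 (plus strand) in Nptx2 and chr15:79790273-79790332 (minus strand) in Nptxr.
Nptx1: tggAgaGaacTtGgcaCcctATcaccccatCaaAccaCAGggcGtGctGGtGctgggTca
Nptx2: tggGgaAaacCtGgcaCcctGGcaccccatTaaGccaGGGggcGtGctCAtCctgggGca
Nptxr: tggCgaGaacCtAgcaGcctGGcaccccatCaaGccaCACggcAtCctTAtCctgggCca

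Even there, Nptx2 differed from Nptx1 at 13 positions and Nptxr differed from Nptx1 at 14. The longest run of bases shared by any 2 full transcripts was 16 for Nptx1 and Nptx2, 17 for Nptx1 and Nptxr and 19 for Nptx2 and Nptxr, and no pair shared a run of 50 bases (0 in each of the 3 pairs). The rows of the 3 members could therefore not exchange reads that matched 50 or more bases exactly.

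Nptxr has an overlap of a different kind. An annotated gene on the same strand, Npcd (ENSMUSG00000089837, chromosome 15, 79789675 to 79834237), joins exons of Cbx6 and Nptxr, and all 1453 of its exon bases are shared with those genes. It covered 890 of the 4948 bases (18.0%) of the Nptxr transcript and 873 of its 1482 coding bases (58.9%). Npcd was listed at 0 counts in all 12 libraries. How the authors' counting treated reads lying under both genes is not given in the sources used here, so the level of Nptxr may be understated.

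Nptx1 and Nptxr were among the abundant messages of the hippocampus and Nptx2 was not. Values are given as normalised CPM, read counts scaled to the library size after upper-quartile scaling of the libraries. The mean over the 12 libraries was 642 normalised CPM for Nptx1, 741 for Nptxr and 32.2 for Nptx2, which placed them at ranks 167, 126 and 6241 among the 14008 genes tested. Per kilobase of merged exon, the levels were 123 ± 13.4 for Nptx1, 143 ± 16.5 for Nptxr and 12.7 ± 3.34 for Nptx2 (CPM per kb, SD, n = 12). The ranges of Nptx1 (104 to 158) and Nptxr (117 to 171) overlapped, and that of Nptx2 (9.52 to 20.8) lay below both. With the bases shared with Npcd left out of the length, Nptxr stood at 173 CPM per kb. The lowest raw count behind any value was 1004 for Nptx2, 21405 for Nptx1 and 23843 for Nptxr, and library totals ran from 36714316 to 50643565 counts.

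The members differed in how much they varied between animals of the same group. Nptx2 was the most variable, with a pooled within-group SD of 0.25 on the log2 scale that exceeded the SD of 81.8% of the genes tested. The SD was 0.14 for Nptx1 and 0.15 for Nptxr, close to the median of 0.13 over all genes tested. The female APP/PS1 animals carried most of the spread of Nptx2, with a coefficient of variation of 26.6% against 6.43% to 8.04% in the other groups.

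**Figure D1:**
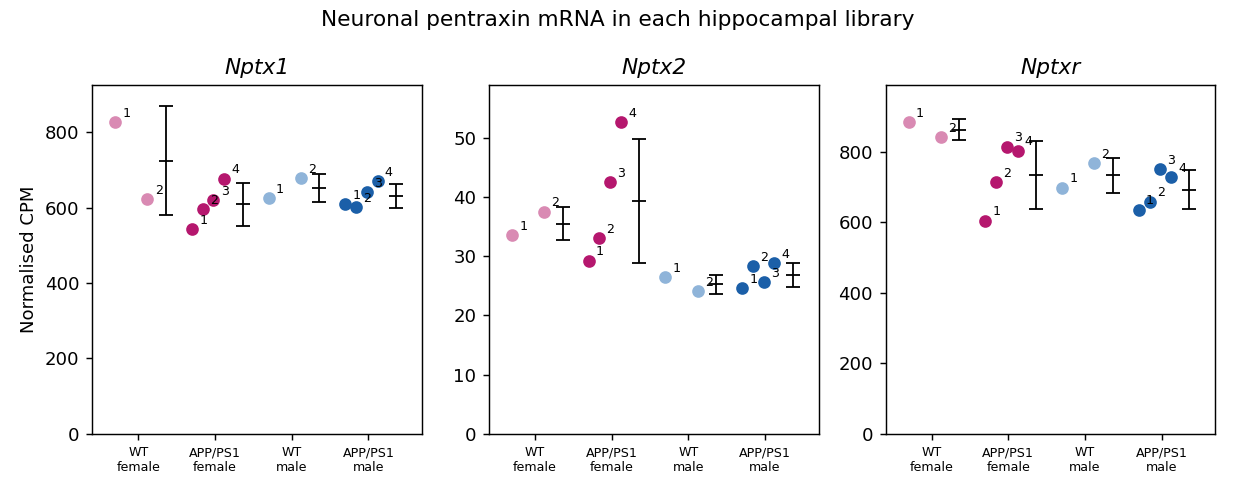
Normalised CPM (linear axis from 0) of each member in the 12 libraries, with a point and replicate number for each animal and, beside each group, the mean ± SD (n = 4 APP/PS1 or n = 2 WT animals). The lowest female for Nptx2 (29.2 CPM) was above the highest male (28.8 CPM), and the 4 APP/PS1 females lay below both WT females for Nptxr.

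Nptx1 was lower on average in APP/PS1 than in WT females but missed the main test's threshold. The size of the difference depended on which WT female was included. The APP/PS1 females 1 to 4 gave 542, 595, 619 and 677 normalised CPM, and the WT females 1 and 2 gave 827 and 622. In these values, which carry no RUV adjustment, only WT female 1 stood above the rest. WT female 2, a library rich in choroid plexus RNA (Ttr 3647 normalised CPM), fell within the range of the APP/PS1 females. With the part fitted to the RUV factors (unwanted variation) removed, the WT females 1 and 2 gave 795.6 and 693.2 CPM. The APP/PS1 females 1 to 4 then gave 604.4, 590, 601.5 and 630.8, all below both WT females. The part removed was fitted together with the groups, so this separation adds no separate support. Its share over all genes was not computed. The APP/PS1 males 1 to 4 gave 609, 601, 641 and 670 normalised CPM, and the WT males 1 and 2 gave 626 and 678. The males of both genotypes overlapped. The group means were 608 ± 56.0 in APP/PS1 females (SD, n = 4), 724 ± 145 in WT females (SD, n = 2), 630 ± 31.6 in APP/PS1 males (SD, n = 4) and 652 ± 36.6 in WT males (SD, n = 2).

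Fitted over all genes with edgeR's quasi-likelihood test, the log2 fold change of Nptx1 in females was -0.30 (SE 0.078, 95% interval -0.46 to -0.13), or -18.5%, which missed the threshold of 0.1 on the adjusted p (Benjamini-Hochberg adjusted p = 0.167, unadjusted p = 0.00232). With the same data, edgeR's likelihood ratio test gave an adjusted p of 0.0525 and DESeq2 gave 0.0295, both past the threshold. The likelihood ratio test is the one named in the study's methods, and the study counted Nptx1 among its female-specific differentially expressed genes. Over all alternatives the adjusted p of Nptx1 in females ran from 0.0295 to 0.978. Without WT female 1 the log2 fold change shrank to -0.13 (edgeR quasi-likelihood adjusted p = 0.953), and without WT female 2 it grew to -0.43 (adjusted p = 0.0524). In males the log2 fold change was -0.0072 (95% interval -0.17 to 0.16, edgeR quasi-likelihood adjusted p = 0.998). The difference between the female and male effects was -0.29 (SE 0.11, unadjusted p = 0.0222), and did not pass after adjustment over all genes (edgeR adjusted p = 0.997). Leaving out WT female 1 moved it to -0.11, and leaving out WT female 2 moved it to -0.42.

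In values without RUV adjustment, Nptxr, the membrane-anchored member, was the only one whose 4 APP/PS1 females all lay below both WT females. The APP/PS1 females 1 to 4 gave 604, 714, 814 and 803 normalised CPM, and the WT females 1 and 2 gave 884 and 841. The gap was narrow, from 814 to 841. With the RUV part removed, as was done for Nptx1, the APP/PS1 females 1 to 4 gave 664.8, 710.8, 794.2 and 751.1 CPM. The WT females 1 and 2 then gave 856.2 and 926 CPM. The APP/PS1 males 1 to 4 gave 635, 658, 750 and 727 normalised CPM and the WT males 1 and 2 gave 698 and 768, with overlapping ranges. Group means were 734 ± 97.5 in APP/PS1 females (SD, n = 4), 862 ± 30.0 in WT females (SD, n = 2), 693 ± 54.6 in APP/PS1 males (SD, n = 4) and 733 ± 49.1 in WT males (SD, n = 2). With 4 animals against 2 such a separation is frequent: 926 of the 14008 genes tested (6.61%) had all APP/PS1 females below both WT females.

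The fitted log2 fold change of Nptxr in females was -0.29 (SE 0.092, 95% interval -0.49 to -0.087), which did not pass (edgeR quasi-likelihood adjusted p = 0.309, unadjusted p = 0.00857). The likelihood ratio test gave an adjusted p of 0.164 and DESeq2 gave 0.0790, and over all alternatives it ran from 0.0631 to 0.964. Leaving out APP/PS1 female 1, the lowest library for Nptxr, moved the log2 fold change to -0.16 (adjusted p = 0.647). In males it was -0.047 (95% interval -0.24 to 0.15, adjusted p = 0.998), and the difference between the sexes was -0.24 (95% interval -0.52 to 0.043, edgeR adjusted p = 0.997), or -0.11 without APP/PS1 female 1.

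Nptx2, the activity-regulated member, did not separate the genotypes in either sex. The APP/PS1 females 1 to 4 gave 29.2, 33.1, 42.5 and 52.7 normalised CPM, and both WT females (33.5 and 37.6) fell among them. The APP/PS1 males 1 to 4 gave 24.6, 28.3, 25.6 and 28.8 normalised CPM against 26.4 and 24.1 in the WT males. The group means were 39.4 ± 10.5 in APP/PS1 females (SD, n = 4), 35.5 ± 2.86 in WT females (SD, n = 2), 26.8 ± 2.05 in APP/PS1 males (SD, n = 4) and 25.3 ± 1.63 in WT males (SD, n = 2). The fitted log2 fold change was 0.010 in females (95% interval -0.36 to 0.38, edgeR adjusted p = 0.993) and 0.10 in males (95% interval -0.26 to 0.46, edgeR adjusted p = 0.998). As percentages these intervals run from -22.1% to 30.2% in females and from -16.3% to 37.9% in males.

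Averaged over the sexes, the genotype effect on the log2 scale was -0.15 for Nptx1 (SE 0.055, edgeR adjusted p = 0.344), -0.17 for Nptxr (SE 0.064, adjusted p = 0.379) and 0.057 for Nptx2 (SE 0.11, adjusted p = 0.925). The average for Nptx1 was -0.075 without WT female 1, and that for Nptxr was -0.11 without APP/PS1 female 1. Under the quasi-likelihood test 0 of the 3 members passed in females, in males, in the average or in the difference of the sexes, against 0.75% of all genes tested in females, 0.178% in males, 1.93% in the average and 0% in the difference. In females 2 of the 3 had an unadjusted p under 0.05, where 9.73% of all genes did. DESeq2 called 2 members lower in females, where it called 2.06% of all genes and 0.371% as lower, and the likelihood ratio test called 1, where it called 1.98% and 0.228%. In males and in the average these tools called 0 of the 3, against 1.02% (likelihood ratio test) and 1.03% (DESeq2) of all genes in males and 2.85% and 2.86% in the average. For the difference of the sexes, where the quasi-likelihood test called 0 genes, 3.88% of all genes had an unadjusted p under 0.05, the likelihood ratio test called 12 (0.0857%) and DESeq2 called 9 (0.0642%).

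An exact permutation test over animals, two-sided and on the log2 normalised CPM without other adjustment, was run for each member. All 8 APP/PS1 against all 4 WT animals gave p = 0.109 for Nptx1, 0.117 for Nptxr and 0.675 for Nptx2 by exact permutation. Within females the exact p was 0.2 for Nptx1, 0.133 for Nptxr and 0.8 for Nptx2, where 4 against 2 animals cannot go below 0.0667. Within males the exact p was 0.533, 0.467 and 0.467 in the same order.

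**Figure D2:**
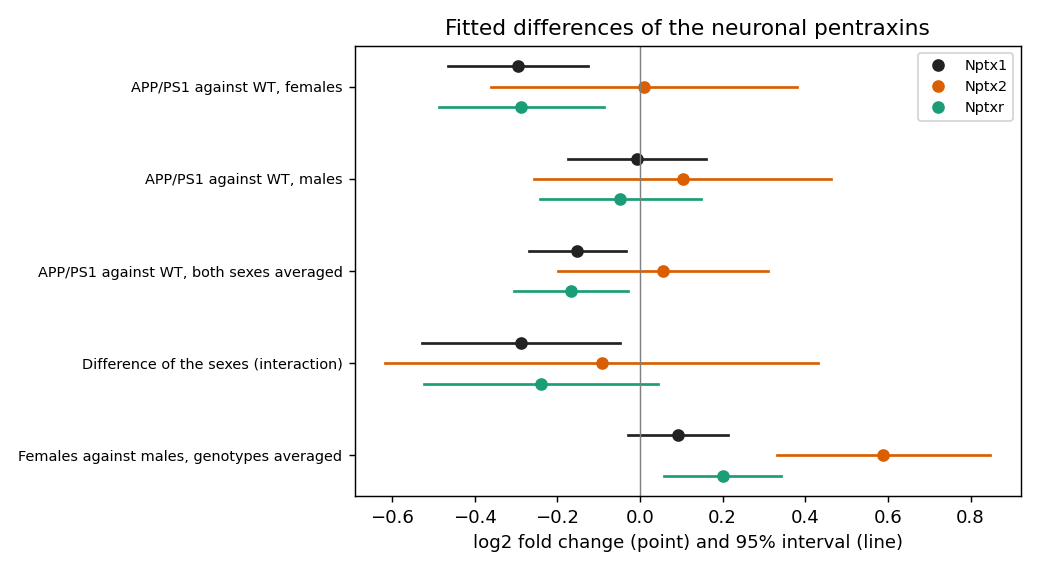
Fitted log2 fold changes (points) with 95% intervals (lines) of the 3 members for the genotype effect in females, in males and averaged, for the difference of the female and male effects, and for females against males. The female intervals of Nptx1 (-0.46 to -0.13) and Nptxr (-0.49 to -0.087) and the sex interval of Nptx2 (0.33 to 0.85) leave out 0 before any adjustment for the number of genes, as do those of Nptx1 and Nptxr in the average, Nptx1 in the difference and Nptxr between the sexes.

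**Figure D3:**
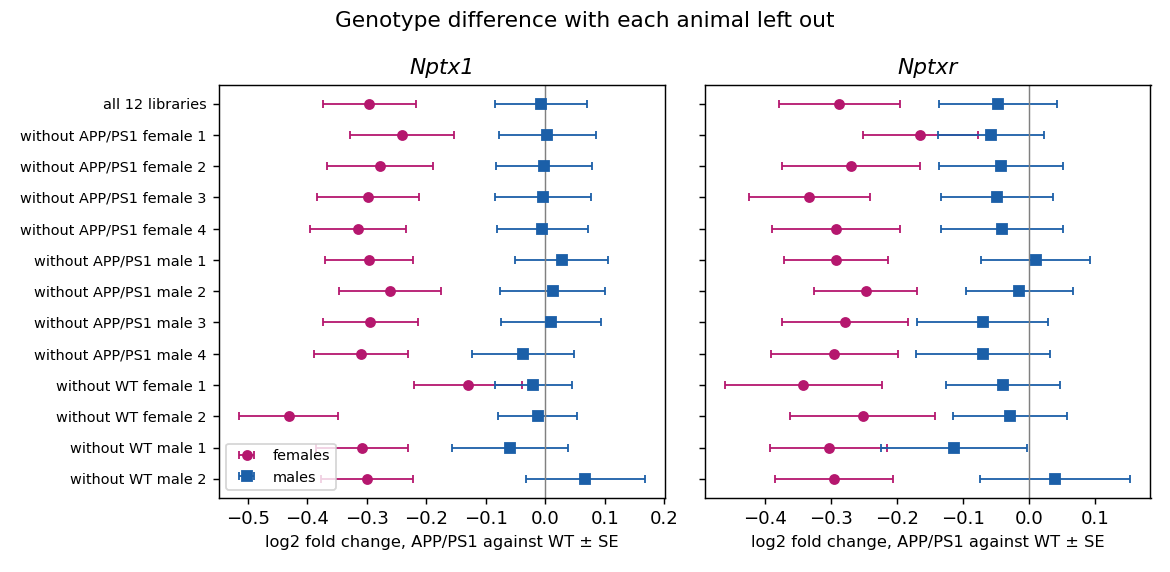
Log2 fold change ± SE of Nptx1 and Nptxr for APP/PS1 against WT in females (circles) and males (squares), fitted with all 12 libraries and with each animal left out. The female value of Nptx1 moved between -0.43 and -0.13 with the WT female left out, and that of Nptxr was nearest to 0 (-0.16) without APP/PS1 female 1.

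A comparison of the sexes was added after the values had been seen. Nptx2 was higher in females: its lowest female (29.2 normalised CPM, APP/PS1 female 1) lay just above its highest male (28.8, APP/PS1 male 4), and all 6 females stood above all 6 males. Of all genes tested, 0.136% had the females above the males in this way, and 0.228% were separated in either direction. The fitted log2 difference between females and males was 0.59 (SE 0.12, 95% interval 0.33 to 0.85), or 50.4% higher. It was 0.54 among the APP/PS1 animals and 0.64 among the WT animals. With edgeR's quasi-likelihood test it ranked 19 among all genes tested (unadjusted p = 4.53e-04) and did not pass adjustment (adjusted p = 0.334). The likelihood ratio test (adjusted p = 0.00128) and DESeq2 (adjusted p = 1.39e-04) both passed, and over all alternatives the adjusted p ran from 1.39e-04 to 1. The quasi-likelihood test called 0.0999% of all genes between the sexes, the likelihood ratio test 0.307% and DESeq2 0.357%.

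The exact two-sided permutation test of the 6 females against the 6 males gave p = 0.00217 for Nptx2, the smallest that 924 splits allow, and p = 0.0286 among the 4 and 4 APP/PS1 animals, the smallest that 70 splits allow. Since the comparison was chosen for what the values looked like, these p-values are descriptive. The same exact test gave p = 0.918 for Nptx1 and 0.191 for Nptxr. In the fit, Nptxr was 0.20 higher in females on the log2 scale (SE 0.065, edgeR adjusted p = 0.626) and Nptx1 0.091 higher (SE 0.056, edgeR adjusted p = 0.868).

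Nptx1 and Nptxr moved together from animal to animal. Over the 12 libraries the correlation of their log2 normalised CPM was r = 0.74 (permutation p = 0.00356, adjusted over 6 relations 0.0107) and Spearman's rho was 0.68 (permutation p = 0.0189, adjusted 0.0566). Without the 2 libraries farthest from the median of Nptx1, r was 0.44. Within females r was 0.79 (exact permutation p = 0.075, adjusted 0.25) and within males 0.88 (exact permutation p = 0.0333, adjusted 0.2). Among the 8 APP/PS1 animals it was 0.74 (exact permutation p = 0.0317, adjusted 0.0950). The direction held in each subset, while the strength over all libraries rested partly on WT female 1 and APP/PS1 female 1, the highest and the lowest for both genes. Nptxr ranked 217 among all genes tested for likeness to Nptx1, and Nptx2, with r = 0.16, ranked 3939.

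The genes most like each member over the 12 libraries were found by Pearson's r, as a description of libraries that share depth, dissection and sex. For Nptx1 these were Adra1d (an alpha-1D adrenergic receptor, r = 0.94), Arf3 (a small GTPase of vesicle traffic, r = 0.92) and Rnf165 (a ubiquitin ligase, r = 0.91), and the most opposed was Agbl3 (a tubulin-modifying carboxypeptidase, r = -0.94). For Nptxr they were Smad3 (a TGF-beta signal transducer, r = 0.98), Src (a tyrosine kinase, r = 0.97) and Mamld1 (r = 0.95), against Polr3c (an RNA polymerase III subunit, r = -0.95). For Nptx2 they were Arfgap3 (r = 0.94), Syn3 (a synapsin, r = 0.91) and Gxylt2 (r = 0.89). The Syn3 locus holds Timp3 on the opposite strand, and whether strand was used in the counting is not given in the sources used here.

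The gene most opposed to Nptx2 among all those tested was Fos, the immediate-early gene widely read as a mark of recent neuronal firing (r = -0.90 over 12 libraries). All 6 females stood above all 6 males for Nptx2, so the relation is also given within each sex, where it was -0.89 over the 6 females and -0.42 over the 6 males. Fos ran from 8.31 to 18.6 normalised CPM in females (median 12.6) and from 15.6 to 27.3 in males (median 20.96). APP/PS1 female 4, the animal with the most Nptx2 (52.7 CPM), had the least Fos (8.31 CPM). APP/PS1 male 1, with the most Fos (27.3 CPM), had 24.6 CPM of Nptx2, near the lowest of all.

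**Figure D4:**
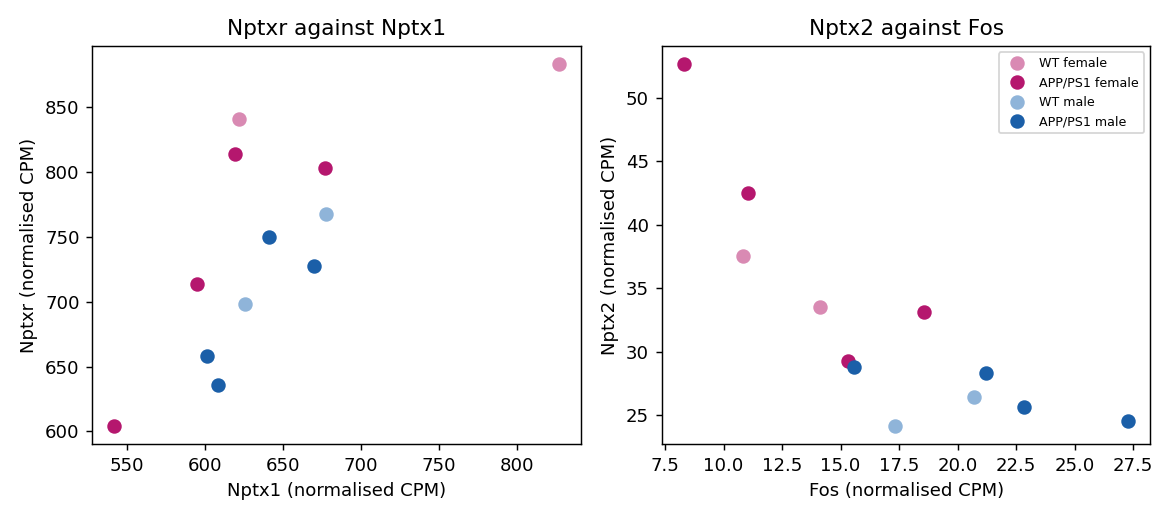
Normalised CPM of Nptxr against Nptx1 (left) and of Nptx2 against Fos (right), with a point for each of the 12 animals coloured by genotype and sex (linear axes that do not start at 0). Nptxr and Nptx1 rose together (r = 0.74 on the log2 scale), and Nptx2 was highest (52.7 CPM) in the animal with the least Fos (8.31 CPM).

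The wider activity-regulated list held 12 genes besides Nptx2, of which 11 were tested. Between the sexes 9 of the 11 were lower in females, with a median log2 difference of -0.35 where the median over all genes tested was -0.0011, and the quasi-likelihood test called 0 of them (2 had an unadjusted p under 0.05, as did 6.15% of all genes, and both other tools called 0). Fos was lower in females by 0.72 on the log2 scale (edgeR adjusted p = 0.735) and Arc, which encodes a postsynaptic protein, by 0.39 (adjusted p = 0.847), opposite in sign to the 0.59 of Nptx2. The mean log2 level of the tested list correlated with Nptx2 at r = -0.75 over the 6 females (rho = -0.71, exact permutation p = 0.0833, adjusted over 6 relations 0.25) and at r = -0.32 over the 6 males (rho = -0.37, exact permutation p = 0.504, adjusted 0.756). Neither passed. Pooled over the sexes r was -0.84 in all 12 libraries (permutation p = 0.00108, adjusted 0.00648, rho = -0.68, adjusted 0.0566) and -0.93 in the 8 APP/PS1 libraries (exact permutation p = 0.00149, adjusted 0.00893, rho = -0.93, adjusted 0.0134). In both sets the sexes stood apart in Nptx2, so the pooled values also hold the difference between the sexes, and without the 2 libraries farthest from the median of the list r was -0.67 and -0.63. Between genotypes, Fosb (a FOS family transcription factor) fell in the average of the sexes by 0.48 on the log2 scale (SE 0.11, edgeR adjusted p = 0.0626). It was the only member of the list called, where the quasi-likelihood test called 1.93% of all genes.

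No synaptic partner of the pentraxins passed the test. The list held 13 genes, all tested: the AMPA receptor subunits Gria1 to Gria4, the sheddase Adam17, the glypicans Gpc4 and Gpc6, the receptor phosphatase Ptprd, Rcn2, the C1q-like organisers C1ql2 and C1ql3, their receptor Adgrb3 (BAI3), and the metabotropic receptor Grm5. The quasi-likelihood test called 0 of the 13 in females, in males, in the average, in the difference of the sexes or between the sexes, and neither the likelihood ratio test nor DESeq2 called any (0). The median log2 fold change was 0.0088 in females and 0.021 in males, against 0.013 and 0.0055 over all genes tested.

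Of the 13 partners, 2 had an unadjusted p under 0.05 in females, both lower, where 9.73% of all genes tested did. Gria1, the AMPA receptor subunit tied to plasticity, gave 992 ± 61.9 normalised CPM in APP/PS1 females (SD, n = 4) and 1073 ± 137 in WT females (SD, n = 2), with a log2 fold change of -0.16 (SE 0.065, edgeR adjusted p = 0.451). C1ql2, a mossy fibre synapse organiser, gave 75.5 ± 6.53 against 91.9 ± 18.9 normalised CPM in the same groups, with a log2 fold change of -0.35 (SE 0.15, edgeR adjusted p = 0.481). In males C1ql2 gave 0.13 (edgeR adjusted p = 0.998). Adam17 was 0.14 higher in the average of the sexes (SE 0.062, edgeR adjusted p = 0.493), and Iah1 lies on its opposite strand.

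The other pentraxins were scarce and none was tested. Apcs (serum amyloid P) was listed at 0 in every library, Crp did not exceed 0.0511 normalised CPM, and Ptx3 and Ptx4 did not exceed 0.785 and 0.688. The subunits of C1q, the complement protein that binds pentraxins, had higher mean levels in APP/PS1 mice of both sexes. In females C1qa gave 117 ± 28.2 normalised CPM in APP/PS1 (SD, n = 4) and 51.9 ± 1.79 in WT (SD, n = 2), with a log2 fold change of 1.21 (SE 0.37). All 3 subunits had an unadjusted p under 0.05 in the average of the sexes, as did 9.67% of all genes, and there C1qa gave 0.86 (edgeR adjusted p = 0.310), C1qb 0.96 (adjusted p = 0.409) and C1qc 0.85 (adjusted p = 0.367). The quasi-likelihood test called 0 of them there, the likelihood ratio test 2 and DESeq2 1, against 1.93%, 2.85% and 2.86% of all genes.

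**Figure D5:**
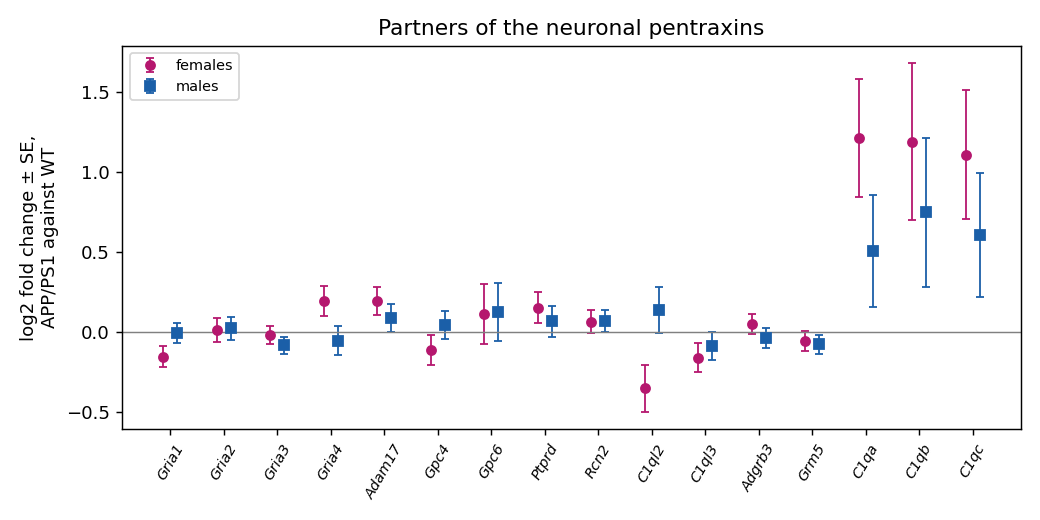
Log2 fold change ± SE for APP/PS1 against WT in females (circles) and males (squares) of the 13 pentraxin partners and the 3 C1q subunits. The partners lay between -0.35 and 0.19, while the C1q subunits lay above 0.5 in both sexes with wide errors, and none of these genes passed the quasi-likelihood test within a sex.

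The cells that make the pentraxins were read through marker lists, whose part in the results was not tested. Excitatory neuron markers, which include the hippocampal genes Prox1 (dentate granule cells), Wfs1, Bok and Zbtb20, summed to 5874 to 6626 normalised CPM in APP/PS1 females, 6468 to 7243 in WT females, 6251 to 6770 in APP/PS1 males and 6050 to 6404 in WT males. In females 6 of the 8 lay on the same side as Nptx1 and Nptxr, and in males 7 of the 8 were higher in APP/PS1. Their median log2 fold change was -0.12 in females and 0.12 in males, against 0.013 and 0.0055 over all genes tested. Prox1 was the furthest from 0 in females by p (log2 fold change -0.28, SE 0.070, unadjusted p = 0.00145), with an edgeR quasi-likelihood adjusted p of 0.134. The likelihood ratio test and DESeq2 each called it (1 of 8), where they called 1.98% and 2.06% of all genes in females. Camk2a, the kinase of excitatory synapses, gave -0.19 (SE 0.070, edgeR adjusted p = 0.387). Of the 8, Neurod6 (0.080, SE 0.080) and Wfs1 (0.18, SE 0.16) were the 2 higher in APP/PS1 females. For the difference of the female and male effects, 7 of the 8 were negative, with a median of -0.24 (0.0098 over all genes tested). There 4 had an unadjusted p under 0.05, where 3.88% of all genes did, and 0 were called by any of the 3 tools. Prox1 gave -0.40 there (edgeR adjusted p = 0.997). Between the sexes 7 of the 8 were higher in females and 1 lower, with a median log2 difference of 0.12 against -0.0011 over all genes tested. Prox1 was 0.22 higher in females (SE 0.050, edgeR quasi-likelihood adjusted p = 0.429). The likelihood ratio test and DESeq2 called it, where they called 0.307% and 0.357% of all genes. Whether the sex difference of Nptx2 goes with that of these markers was not tested.

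Interneuron markers summed to 1080 to 1174 normalised CPM in APP/PS1 females, 1186 to 1205 in WT females, 1081 to 1247 in APP/PS1 males and 1224 to 1230 in WT males. None of the 8 was called by any of the 3 tools in any of these comparisons (0 each), and 1 had an unadjusted p under 0.05 in the average of the sexes, where 9.67% of all genes did. This was Gad1, the GABA-synthesising enzyme (log2 fold change -0.12, SE 0.041, edgeR adjusted p = 0.301). Pvalb, the marker of the interneurons on which Nptx2 is known to act, gave 0.086 (SE 0.11, edgeR adjusted p = 0.867).

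Glial markers moved with genotype alongside these values. In the average of the sexes all 6 microglia markers were higher in APP/PS1 mice. The quasi-likelihood test called 4 of them, Aif1, P2ry12, Csf1r and Itgam (0.50 to 0.77 on the log2 scale), where it called 1.93% of all genes. The likelihood ratio test and DESeq2 each called 5, where they called 2.85% and 2.86%. Of the 4 astrocyte markers 2 were higher and 2 lower, and the quasi-likelihood test called 1, Gfap (1.06, edgeR adjusted p = 0.0127). The microglia markers summed to 230.5 to 333 normalised CPM in APP/PS1 females and 170.2 to 203.4 in WT females, and to 242.2 to 318.9 against 195.1 to 195.8 in males. The astrocyte markers summed to 1757 to 2109 CPM in APP/PS1 females and 1280 to 1380 in WT females, and to 1433 to 1831 against 1259 to 1353 in males. Oligodendrocyte markers (3510 to 4680 and 3306 to 4598 CPM in APP/PS1 females and males, 3805 to 4419 and 3144 to 3763 in WT) and endothelial markers (97.95 to 127.1 and 100.9 to 143 in APP/PS1, 92.9 to 108.4 and 113 to 144.1 in WT) had overlapping ranges in both sexes.

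The libraries also differed in choroid plexus RNA and gave a mixed check of genotype. Ttr, the choroid plexus transthyretin gene, stood at 3530 to 6362 normalised CPM in 3 libraries, those of WT female 2, APP/PS1 female 1 and APP/PS1 male 2, and at 2.69 to 18.3 in the other 9. The 6 choroid plexus markers together ran from 22.2 to 3801 CPM in APP/PS1 females, 26.7 to 3975 in WT females, 21.1 to 6824 in APP/PS1 males and 23.8 to 28.6 in WT males. Nptx1 ran from 542 to 622 CPM in these 3 libraries and from 595 to 827 in the others, and Nptxr from 604 to 841 and from 635 to 884. Without the 3 libraries and without RUV factors, the female log2 fold change was -0.40 for Nptx1 (edgeR adjusted p = 0.265) and -0.19 for Nptxr (adjusted p = 0.773), with 1 WT female left, and the sex difference of Nptx2 was 0.55 (adjusted p = 0.760). The rows of App and Prnp did not separate the genotypes (averaged log2 fold changes -0.0035 and -0.042), so they do not check the labels, and the genotype is given here as labelled. Thy1 was higher in every library labelled APP/PS1 (2173 to 3311 CPM) than in every WT library (725.8 to 746.5 CPM). Of all genes tested, 1.31% had all 8 APP/PS1 above all 4 WT libraries. The averaged log2 fold change of Thy1 was 1.795 (edgeR quasi-likelihood adjusted p = 5.6e-06).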

How the data were processed

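Poly-A RNA from 12 hippocampi was sequenced as directional libraries of paired reads (NovaSeq). Per the labels, the authors' processing on GRCm38 used Trimmomatic, STAR, HTSeq and edgeR, and they deposited raw read counts per Ensembl gene. Versions, annotation and the handling of strand and of reads under several genes are not given in the sources used here. Of 55573 IDs, 55394 matched GENCODE M21.

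Genes reaching a log2 CPM of 1 in 3 or more libraries (14008) were fitted in a single model of 4 groups with upper-quartile scaling and 2 RUV factors, taken from all genes but the 5000 with the smallest p in a first pass. The quasi-likelihood test of edgeR 4.0.16 (R 4.3.3) was the main test, called at a Benjamini-Hochberg adjusted p under 0.1. DESeq2 1.42.0 and edgeR's likelihood ratio test, which is the test named in the study's methods, were alternatives. The procedure was also run on simulated independent counts with larger changes than those of the members. That run does not show how it treats changes as small as theirs. Per-library values carry no RUV adjustment unless the RUV part is said to be removed. Coding sequences were aligned with MAFFT 7.526. Exact and permutation tests were coded in Python 3.11.15, with SciPy 1.17.1 for the ranks of Spearman's rho. Intervals are at 95%.

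Members and lists were chosen with earlier results of these data known. Named genes were the members, their partners, other pentraxins and C1q subunits, of other lists those called in the averaged contrast or else up to 4 with the smallest p there, and for each member the 3 genes with the highest r and the 1 with the lowest. Outside this rule, Arc, Pvalb, Wfs1, Bok, App, Prnp and genes overlapping a named gene were named after their values were seen. Some genes of the lists are not reported here.

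Within groups, pairs of libraries differed by more than sampling noise (chi-square per degree of freedom 11.6 to 52.0).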

Additional observations from a re-analysis of the deposited data

How the results depend on the processing

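Log2 values are given throughout. Over 16 results and 470 alternative values, 418 kept their direction and side of the threshold, 13 newly passed it, 39 changed sign and 0 lost a call (the main fit called no member). Those that changed sign were Nptx2 between genotypes and in the difference of the sexes, and Nptx1 and Nptxr in males. Nptx1 also changed sign between the sexes without WT female 1, and in the difference of the sexes (-0.29 in the main fit) without that animal and RUV factors. The cause was not tested where a value moved.

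The likelihood ratio test newly called Nptx1 in females (-0.30) and Nptx2 between the sexes (0.59). DESeq2 newly called Nptx1 (-0.31) and Nptxr (-0.30) in females and Nptx2 between the sexes (0.59), and put Nptx2 in females at -0.0063. Without an expression filter Nptx1 in females passed (-0.31, adjusted p = 0.0862) and Nptx2 in females was -0.0090, and with TMM scaling the latter was -0.0034. The likelihood ratio test with the CPM filter and a first pass on the averaged effect called Nptx1 in females (-0.31) and Nptx2 between the sexes (0.78), and gave Nptx1 in males 0.0032. That first pass alone gave Nptx1 in males 0.0069, and replacing the RUV factors by a choroid plexus score gave it 0.010.

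The difference of the sexes for Nptx2 was 0.061 without RUV factors, 9.4e-04 with 1 factor, 0.0049 with the choroid plexus score and 0.28 without the 3 choroid-rich libraries and RUV factors. Without RUV factors and WT female 1, Nptx1 was 0.016 in the difference of the sexes and -0.059 between the sexes, and without RUV factors and WT female 2 the difference for Nptx2 was 0.14. For Nptx1 in females, leaving out RUV factors alone gave -0.25 (edgeR quasi-likelihood adjusted p = 0.674). Leaving out RUV factors and a WT female gave values from -0.45 to -0.032.

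With each animal left out in turn, Nptx1 ran from -0.43 to -0.13 in females, -0.22 to -0.075 in the average, -0.42 to -0.11 in the difference of the sexes, -0.059 to 0.068 in males and -0.0038 to 0.15 between the sexes. Nptx2 ran from -0.18 to 0.19 in females, -0.022 to 0.16 in males, -0.030 to 0.15 in the average, -0.30 to 0.12 in the difference of the sexes and 0.44 to 0.68 between the sexes, where it passed without APP/PS1 male 4 (adjusted p = 0.0390). Nptxr ran from -0.11 to 0.039 in males, -0.21 to -0.11 in the average and -0.33 to -0.11 in the difference of the sexes. When a WT animal was left out, the lone WT animal of that sex was assumed to vary like the other groups.

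The replicate numbers did not pair the samples: of 14 pairs of libraries with the same number, 4 correlated above 0.1 in their deviations from the group means (range -0.67 to 0.73). With the replicate block and RUV factors, Nptxr passed in females (-0.36, adjusted p = 0.0631) and in the average (-0.25, adjusted p = 0.0743) and Nptx2 passed between the sexes (0.56, adjusted p = 0.0229), while Nptx2 was -0.11 in females, -0.076 in males and -0.095 in the average. With the block and no RUV factors, Nptx2 was -0.043 in females, -0.077 in males, -0.060 in the average and 0.033 in the difference of the sexes, and the 3 calls were lost (adjusted p = 0.250 for Nptxr in females, 0.111 in the average and 0.460 for Nptx2 between the sexes). The block fit without RUV factors, the sex comparison and the fits without both RUV factors and a WT female were chosen after seeing the data.

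Counts of genes called depended on the test. The quasi-likelihood test, likelihood ratio test and DESeq2 called 105, 278 and 289 genes in females, 25, 143 and 144 in males and 14, 43 and 50 between the sexes. Each member had at least 1004 counts in every library, and with 2 WT animals per sex an exact permutation test within a sex cannot go below 0.0667.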
